A study of Mus musculus with 144 samples.

Results

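The genes described here are the core of MHC class II antigen presentation: H2-Aa, H2-Ab1, H2-Eb1, H2-DMa, H2-DMb1, Cd74 and Ciita. They were taken by symbol from 4 deposited tables, one each for ad libitum liver, reverse-phase-fed liver, endothelial cells and Kupffer cells, and are 7 of the 24421 gene symbols in those tables. For each symbol the transcript row with the largest mean was kept. All 7 genes passed the filter on low values in all 4 tables, so none is left out below.

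Class II molecules sit on the cell surface and show CD4+ T cells peptides cut from proteins that the cell has taken up. An alpha and a beta chain pair in the endoplasmic reticulum around the invariant chain CD74, and the chaperone H2-DM later exchanges the remnant of the invariant chain for a peptide in the endosome. The coactivator CIITA switches the whole set on and is itself induced by interferon-gamma. In liver, class II is known for high levels in professional antigen-presenting cells, among them dendritic cells, B cells and the resident macrophages called Kupffer cells, for lower levels in the endothelium of the sinusoids, and for little expression in resting hepatocytes.

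The mice were male C57BL/6J on normal chow. Controls were set against mice whose hepatocytes were made to lack the REV-ERBα and REV-ERBβ receptors in adult life. Both are clock repressors, encoded by Nr1d1 and Nr1d2. Whole liver was taken at zeitgeber time (ZT, hours after lights on) 1, 4, 7, 10, 13, 16, 19 and 22 from mice fed ad libitum and from mice on reverse-phase feeding (food in the rest phase), with 3 libraries for each genotype and time. Endothelial and Kupffer cells were isolated at ZT 4, 10, 16 and 22, again with 3 libraries per genotype and time. The label places the deletion in hepatocytes, so endothelial and Kupffer cells of a knockout liver are not themselves the labelled target. The sources used here do not say whether each library is 1 mouse, so a p-value measures spread between libraries, which may be technical.

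Control and knockout are the groups of the labels, whose columns are headed GFP and CRE. The targeted transcripts do not check them: in the livers labelled knockout, Nr1d1 was higher by 1.76 ± 0.15 (log2 ± SE) on the first schedule and by 1.83 ± 0.15 on the second, and Nr1d2 by 1.11 ± 0.10 and 0.80 ± 0.08. The values are per transcript, and which exons were removed is not given in the sources used here. Every direction below rests on the labels. Liver libraries held 4567453 to 10364667 counts ad libitum and 13117300 to 26191000 in the other schedule. The isolated-cell tables hold normalised signal whose depth is unknown. Of the 144 libraries 8 stood apart from their group or table (2 of ad libitum control liver, 2 of endothelial cells from knockout livers and 4 of Kupffer cells, at ZT 4), and results that rest on them are given with and without them.

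H2-Aa (alpha chain of the I-A molecule), H2-Ab1 (its beta chain), H2-Eb1 (beta chain of I-E), H2-DMa and H2-DMb1 (the chains of H2-DM) lie together in the MHC on chromosome 17 of mm9, the build of the tables, between 34259777 (the start of H2-DMa) and 34453619 (the end of H2-Eb1). Ciita, on chromosome 16, and the invariant chain gene Cd74 lie elsewhere. C57BL/6 mice are known to lack a working I-E alpha chain, and its pseudogene H2-Ea-ps was listed at 0 in the 96 liver libraries. It was above 0 in the isolated cells, where its endothelial control level was 74.4% of its Kupffer level. H2-DMb1 has a near-identical neighbour, H2-DMb2, so reads may be split between them, and a microRNA gene, Mir5107, lies inside Cd74 on the same strand.

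The class II promoters are known for a shared module, an X box read by the RFX complex followed by a Y box read by NF-Y, on which CIITA assembles. RefSeq's promoter table (GRCm38.p6) held 4 of the 7 genes, and H2-Ab1, Cd74 and Ciita were not among them. In the 250 bases before the start, GNAACT (letters of the X box) followed by TGATTGG (the Y box) after 10 to 50 bases, on either strand, was found for 3 of the 4. The capitals in the 3 sequences below mark those letters, and positions are of GRCm38, not of mm9. The sequences are shown to illustrate that arrangement. All 7 genes varied together across libraries in each table, as given further on, whether or not these letters were found. A link between the letters and the levels was not tested.
H2-Aa (chr17:34287855-34287916, minus strand): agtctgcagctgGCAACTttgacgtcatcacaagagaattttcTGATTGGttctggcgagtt
H2-Eb1 (chr17:34305764-34305824, plus strand): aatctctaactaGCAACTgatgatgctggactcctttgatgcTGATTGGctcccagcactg
H2-DMb1 (chr17:34153085-34153146, plus strand): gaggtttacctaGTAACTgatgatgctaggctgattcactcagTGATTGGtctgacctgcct
The spacing between the letters was 25, 24 and 25 bases. The same arrangement was found in 97 of 32851 promoters (0.295%), whereas GNAACT alone stood in 37.3% and TGATTGG alone in 7.23%. Neither listed start of H2-DMa had these letters in the window, which says nothing of binding there. The letters were chosen after the sequences had been seen, and a match is a description.

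Of the 4 tables, Kupffer cells held the most class II RNA for each of the 7 genes. Levels are CPM (a counts-per-million scale, with signal scaled likewise) per kilobase of transcript, as mean ± SD over the control libraries (12 for each isolated cell type, 24 for each liver schedule). Cd74 stood at 1824 ± 299 in Kupffer cells and ranked 20th of 19270 genes above 0. H2-Aa reached 933 ± 203, H2-Ab1 440 ± 85 and H2-Eb1 233 ± 50. The H2-DM chains were lower, with 76.8 ± 9.5 for H2-DMa and 59.8 ± 7.8 for H2-DMb1, and the coactivator Ciita had 9.49 ± 2.35. Each gene was above the next in this order in all 12 control libraries. The ranges of neighbours overlapped for H2-Ab1 with H2-Eb1 and for H2-DMa with H2-DMb1, and for no other pair of neighbours in Kupffer cells.

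In endothelial libraries the order of the 7 genes was the same at lower levels. Cd74 had 146 ± 53, H2-Aa 96.1 ± 30.6, H2-Ab1 42.9 ± 15.7, H2-Eb1 30.9 ± 10.8, H2-DMa 6.77 ± 2.62, H2-DMb1 5.91 ± 2.31 and Ciita 1.05 ± 0.33. In ad libitum liver Cd74 had 34.2 ± 8.5 and Ciita 0.208 ± 0.090, and under reverse-phase feeding 37.0 ± 8.2 and 0.0978 ± 0.0457. H2-DMa and H2-DMb1 could not be ordered in liver: H2-DMb1 was the higher in 13 of 24 control libraries ad libitum and in 14 of 24 under reverse-phase feeding. H2-Aa and H2-Ab1 likewise tied under reverse-phase feeding, each the higher in 12 of 24. The tables were normalised separately, so levels set across them are descriptions with no test.

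**Figure D1:**
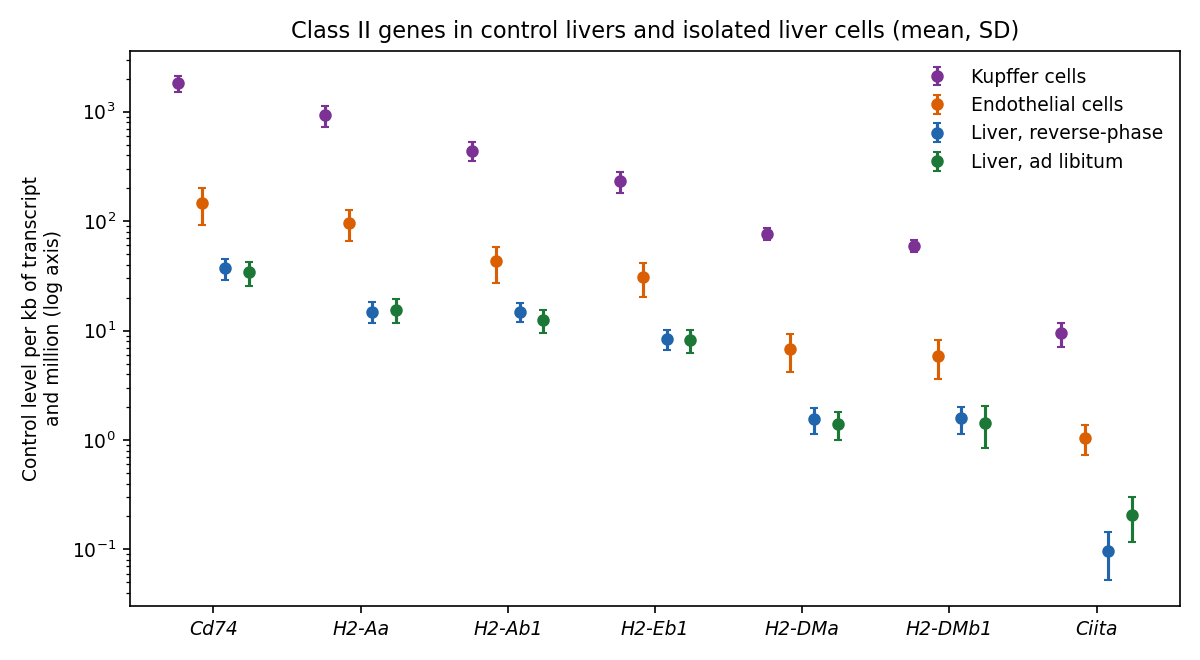
Control level of each class II gene in CPM per kilobase of transcript (log axis) in Kupffer cells, endothelial cells and liver on both schedules; points are means and bars SD over 12 (isolated cells) or 24 (liver) control libraries. Each gene is highest in Kupffer cells, at 7.99% to 13.3% of that level in endothelial cells and lowest in liver.

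The invariant chain was the most abundant member of the set in all 4 tables. Cd74 made up 51.2% ± 2.2 of the summed level of the 7 genes in Kupffer controls, 44.1% ± 3.1 in endothelial controls, 46.4% ± 2.9 in ad libitum and 47.1% ± 2.3 in reverse-phase control liver. H2-Eb1 ran from 6.48% ± 0.52 in Kupffer cells to 11.2% ± 1.2 in ad libitum liver, and Ciita from 0.129% ± 0.064 in reverse-phase liver to 0.333% ± 0.085 in endothelial cells. Between the genotypes no gene's share moved by as much as 2 percentage points: Cd74 had 52.9% ± 2.7 in Kupffer cells and 45.9% ± 3.9 in endothelial cells of knockout livers.

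The endothelial level of each class II gene was 7.99% (Cd74) to 13.3% (H2-Eb1) of its Kupffer level, with a median of 9.89%. Kupffer cell markers spanned a similar range: across 12 of them (among them Clec4f, Vsig4, Cd5l and Adgre1) the endothelial level was 4.80% to 16.1% of the Kupffer level, with a median of 8.35%. MHC class I genes, which most cells express, had 44.5% to 106%, and 12 endothelial markers a median of 1990%. The class II values lay within the range of the Kupffer markers. How much of the endothelial class II signal came from macrophages in the preparation was not tested.

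**Figure D2:**
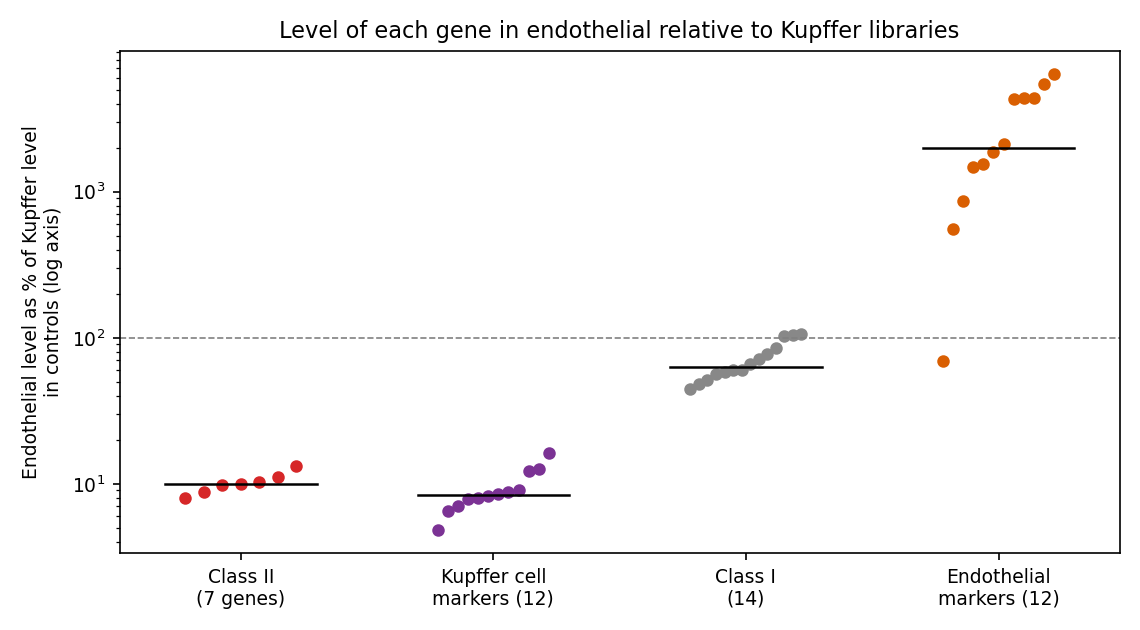
Control level in endothelial libraries as a percentage of the control level in Kupffer libraries (log axis), 1 point per gene and a bar at the median of each list. The class II genes (median 9.89%) lie beside the Kupffer cell markers (8.35%) and below the class I genes and endothelial markers.

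In liver the class II genes stood at 1.67% (H2-Aa) to 3.53% (H2-Eb1) of the Kupffer level ad libitum, with a median of 2.19%, and the Kupffer markers at 0.531% to 1.68%, with a median of 1.02%. H2-Aa, the lowest of the 7, was at the level of the highest marker, C1qa (1.68%). In reverse-phase liver the sets overlapped more: class II genes stood at 1.03% (Ciita) to 3.60% (H2-Eb1), with a median of 2.03%, and Kupffer markers at 0.546% to 2.90% (Marco), with a median of 0.934%, so that H2-Ab1 and H2-Eb1 alone of the 7 lay above Marco. In whole tissue fewer cells of a type and less RNA per cell cannot be told apart. Markers of other presenting cells were low but measured: in ad libitum control liver the summed level of 11 dendritic cell markers was 5.06 to 10.6 CPM and that of 10 B cell markers 1.18 to 8.20, against 222 to 527 for the Kupffer markers and 51.4 to 143 for the 7 class II genes. Flt3, which marks dendritic cells, was listed at 0 in 12 of the 48 ad libitum libraries.

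The first comparison asked whether loss of the hepatocyte receptors changed class II RNA in whole liver. It was fitted over all genes with edgeR as the knockout minus control difference of the daily mean of log2 expression. H2-Eb1 was the 1 class II gene to pass the test, ad libitum. Its normalised CPM ran from 7.72 to 20.0 with a median of 13.7 in 24 control livers, and from 7.20 to 37.0 with a median of 15.6 in 24 knockout livers. The ranges overlapped, and 5 knockout libraries lay above the highest control. The difference was 0.30 ± 0.11 (log2 ± SE), with an edgeR adjusted p of 0.0493 that barely passed the threshold of 0.05. It did not pass with the 2 libraries that stood apart left out (0.28, edgeR adjusted p = 0.0830), nor in 29 of the 48 fits that left out 1 library each.

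None of the remaining genes passed ad libitum. Cd74 had a median of 47.2 CPM in controls (27.6 to 72.8) and of 52.1 in knockouts (38.1 to 100.1), a difference of 0.21 ± 0.09 with an edgeR adjusted p of 0.0854. H2-Aa differed by 0.22 ± 0.12, H2-Ab1 by 0.18 ± 0.11, H2-DMa by 0.24 ± 0.12, H2-DMb1 by 0.19 ± 0.15 and Ciita by 0.06 ± 0.16, with edgeR adjusted p between 0.120 and 0.815. One of 7 genes called has to be read against the 27.2% of all 12534 tested genes called in this comparison (13.7% higher in the knockout). At an unadjusted p under 0.05 it was 3 of 7, against 37% of all genes. All 7 fitted values were above 0, with a median of 0.21, where 49% of all genes were above 0 and their median was near 0. The 7 genes varied together across libraries, as given further on, so their signs and counts are not independent, here or below.

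Under reverse-phase feeding no class II gene passed, against 26.9% of 13810 tested genes, and 2 of the 7 had an unadjusted p under 0.05, against 37.2%. H2-Aa had a median of 15.6 CPM in controls (9.41 to 22.6) and of 18.0 in knockouts (12.5 to 43.3), and differed by 0.32 ± 0.13 with an edgeR adjusted p of 0.0603. DESeq2 called it, at 0.33 and an adjusted p of 0.0410, and edgeR did so in 14 of the 48 fits that left out 1 library. Ciita, which had 3.0 to 38.0 deposited counts per knockout library, differed by 0.47 ± 0.22 with an edgeR adjusted p of 0.114. H2-Ab1, H2-Eb1 and Cd74 differed by 0.21 ± 0.13, 0.22 ± 0.13 and 0.19 ± 0.12, H2-DMa by 0.10 ± 0.13 and H2-DMb1 by 0.01 ± 0.13. Again all 7 values were above 0, with a median of 0.21. For H2-DMb1 the sign was not stable, at -0.01 with the replicate number as a block.

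**Figure D3:**
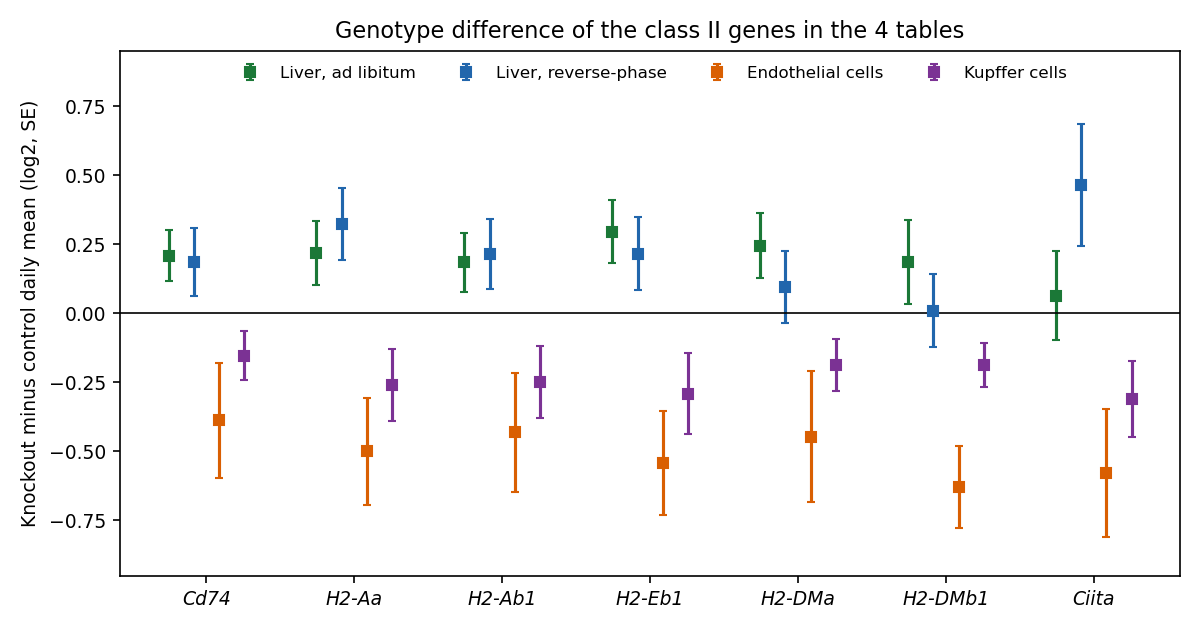
Knockout minus control difference of the daily mean (log2, with bars of 1 SE) for each class II gene in the 4 tables. The 14 liver values lie above 0 and the 14 values of isolated cells below 0; H2-Eb1 in ad libitum liver was the 1 call.

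A few knockout livers had class II levels well above all others. For H2-Aa, 5 of the 24 ad libitum knockout libraries lay above the highest control (24.5 CPM), with 44.7 CPM at ZT 1 (number 2), 30.0 at ZT 22 (number 1), 28.0 at ZT 4, 28.0 at ZT 10 and 25.0 at ZT 22 (number 3). Under reverse-phase feeding 4 of 24 did so, with 43.3 at ZT 1, 40.1 at ZT 10, 34.6 at ZT 19 and 31.7 at ZT 7, where the highest control had 22.6. They were spread over the day and over both schedules.

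In several of these libraries the class II genes were high together. The libraries had been picked by H2-Aa, which is 1 of the 7 genes counted, and the 7 genes varied together. High values of the other genes thus follow in part from that choice. All 7 exceeded their highest control in the reverse-phase knockout libraries at ZT 1, ZT 7 and ZT 10 (number 3 in each case), and 6 of 7 did so in the ad libitum libraries at ZT 1 (number 2) and ZT 22 (number 1). Cd74 reached 126 CPM at ZT 1 and 129.7 CPM at ZT 10 under reverse-phase feeding, where the median of the knockout libraries was 52.9. Markers of other immune cells were high in several of them. In the reverse-phase ZT 10 library the summed monocyte and neutrophil markers and the T and NK cell markers ranked 1st of 48, and in the ZT 1 library the Kupffer markers did so. The Kupffer markers of the reverse-phase ZT 10 library ranked 13th. In the reverse-phase ZT 19 library the dendritic cell markers ranked 1st but the Kupffer markers 34th. Its B cell, T and NK cell, and monocyte and neutrophil markers each ranked 2nd. In the ad libitum ZT 22 library (number 1) the Kupffer and dendritic cell markers ranked 1st. The ad libitum ZT 1 library, with the highest H2-Aa of all, ranked 11th for Kupffer, 25th for dendritic cell, 15th for B cell, 10th for T and NK cell and 7th for monocyte and neutrophil markers. The reverse-phase ZT 7 library ranked 4th for Kupffer, 3rd for T and NK cell and 32nd for dendritic cell markers. The ad libitum ZT 4 library ranked 18th to 25th for the 5 lists. The ad libitum ZT 10 library ranked 6th for Kupffer, 3rd for dendritic cell, 13th for B cell, 6th for T and NK cell and 3rd for monocyte and neutrophil markers. In the same order of lists, the ad libitum ZT 22 library (number 3) ranked 27th, 32nd, 1st, 23rd and 19th. The part of these cells in the result was not tested.

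**Figure D4:**
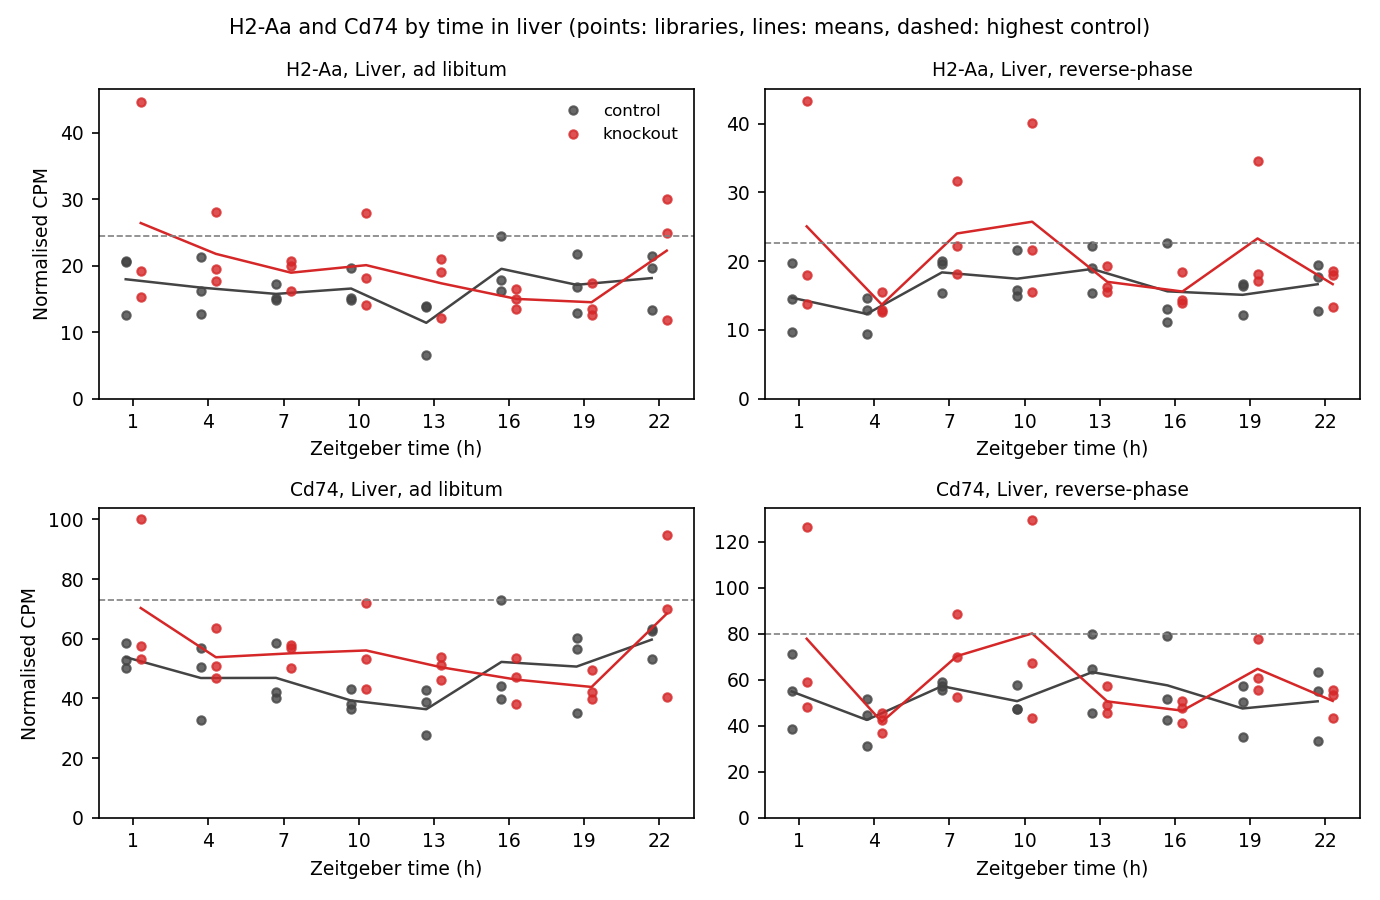
H2-Aa (upper row) and Cd74 (lower row) in normalised CPM by zeitgeber time in liver under ad libitum (left) and reverse-phase feeding (right), 1 point per library, with lines through the means of 3 libraries and a dashed line at the highest control. Most knockout libraries lie among the controls, and for H2-Aa 5 and 4 knockout libraries stand above the dashed line.

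Across the liver table no Kupffer marker was called in either schedule, and their median differences were -0.01 ad libitum and -0.05 under reverse-phase feeding. Of 12 endothelial markers, 10 rose in ad libitum livers but 3 in reverse-phase livers, and 8 of 9 stellate cell markers rose in each, where 13.7% and 12.7% of all genes rose. Of 6 monocyte and neutrophil markers tested ad libitum 2 rose and 5 were above 0 (median 0.30), and under reverse-phase feeding none of 7 was called (median 0.13). All 5 B cell markers tested under reverse-phase feeding were above 0 (median 0.38) with none called. The 7 class II genes and the Kupffer markers, each as a mean of standardised values, correlated across the 48 libraries with r = 0.484 ad libitum and 0.535 under reverse-phase feeding. For monocyte and neutrophil markers r was 0.428 and 0.589, and for T and NK cell markers it was 0.55 under reverse-phase feeding. Stellate cell markers had 0.474 and 0.293, endothelial markers 0.364 and 0.096, and hepatocyte markers -0.062 and 0.24. Dendritic cell markers had 0.348 and 0.433, and B cell markers 0.322 and 0.358. The part of these cells in the class II values was not tested. These points share library depth and composition, and the values are descriptions.

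In endothelial cells of knockout livers all 7 class II genes were lower on average and none passed the test. The H2-DM chain H2-DMb1 came nearest. Its control signal at ZT 4 was 11.2, 22.2 and 24.4. It then read 25.8, 33.8 and 51.1 at ZT 10 and 28.1, 35.8 and 44.0 at ZT 16, and by ZT 22 20.6, 25.2 and 18.7. In cells of knockout livers ZT 4 gave 11.4, 14.3 and 11.5, ZT 10 gave 19.1, 25.1 and 22.3, ZT 16 gave 35.6, 15.8 and 20.5, and ZT 22 gave 12.3, 14.2 and 11.9. The groups did not overlap at ZT 10 and ZT 22 and overlapped at ZT 4 and ZT 16. The difference was -0.63 ± 0.15 on the log2(signal + 1) scale, which understates changes of low genes, with an unadjusted p of 0.000269 and a limma adjusted p of 0.261.

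The remaining endothelial values ran from -0.39 ± 0.21 for Cd74 to -0.58 ± 0.23 for Ciita, with H2-Aa at -0.50 ± 0.19 and H2-Eb1 at -0.54 ± 0.19. Median H2-Aa signal was 367 in controls (172 to 629) and 289 in cells of knockout livers (127 to 376), with overlap at each of the 4 times. Of the 7 genes, 4 had an unadjusted p under 0.05, against 5.4% of all genes, and limma adjusted p ran from 0.261 to 0.927. In this comparison 0.0319% of 12524 tested genes were called (4 genes, and 1 to 7 without 1 library), so a count of 0 is near the background. Without the 2 endothelial libraries of knockout livers that stood apart (ZT 22) the 7 values ran from -0.52 to -0.64.

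The Kupffer cell markers lay on the same side. All 12 were below 0 in the endothelial comparison, with a median of -0.28 and none called, and their summed level was 1105 to 4966 in controls, scaled as above, and 1159 to 3775 in cells of knockout livers, with no marker at 0 throughout. All 7 monocyte and neutrophil markers tested (median -0.45) and all 3 T and NK cell markers (median -0.33) were below 0 as well, with none called. Across the 24 endothelial libraries the class II mean and the Kupffer marker mean correlated with r = 0.865, whereas in Kupffer cells the value was -0.097. Set against the summed Kupffer markers, the 7 class II genes had a median of 13.9% (8.90% to 17.9%) in endothelial controls and 11.8% (8.30% to 16.6%) in endothelial cells of knockout livers. For monocyte and neutrophil markers r was 0.408 in endothelial cells. The part of macrophage or other immune cell RNA in the endothelial difference was not tested.

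In Kupffer cells, where class II RNA was highest, the 7 genes were again below 0 and none was called, with limma adjusted p of 0.9997 for each. H2-Aa had a median signal of 4708 in controls (2869 to 5696) and 3652 in cells of knockout livers (2204 to 5182), a difference of -0.26 ± 0.13. H2-Eb1 had medians of 1800.1 and 1359.6, a difference of -0.29 ± 0.15, and H2-Ab1 differed by -0.25 ± 0.13. H2-DMa and H2-DMb1 both differed by -0.19 (SE 0.09 and 0.08) and Cd74 by -0.15 ± 0.09. For Cd74 the table is coarse: normalisation gives equal ranks equal values, and its 24 libraries share 15 distinct values.

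Ciita, the coactivator, had the largest Kupffer difference of the 7, at -0.31 ± 0.14. Its control signal was 127, 222 and 237 at ZT 4 and 233, 200.5 and 168 at ZT 10. Later it was 307, 279 and 201 at ZT 16 and 240.3, 312 and 312 at ZT 22. Cells of knockout livers had 229.8, 208 and 183 at ZT 4, then 160.0, 111 and 133 at ZT 10, then 263, 184 and 206 at ZT 16, and finally 151, 306 and 167 at ZT 22. The groups were apart at ZT 10 and overlapped at the other times. Kupffer markers were level here, with a median of 0.01. Monocyte and neutrophil markers had a median of -0.22, with 3 of 5 tested below 0. Endothelial markers had -0.11, with 9 of 12 below 0. Medians were -0.10 for dendritic cell, -0.08 for B cell, -0.03 for stellate cell and 0.09 for hepatocyte markers. None of these markers was called, and the part of these cells in the class II values was not tested. Ciita and H2-DMb1 had an unadjusted p under 0.05, against 3.98% of all genes, and 0.0244% of 12270 tested genes were called (3 genes, and 2 to 7 without 1 library). Without the 4 Kupffer libraries that stood apart (ZT 4) the 7 values lay closer to 0, from -0.09 for Cd74 to -0.27 for Ciita.

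Liver values were thus above 0 and isolated-cell values below 0, 7 of 7 in each table. The 7 genes varied together within each table, so the 7 signs of a table are not independent results. No isolated-cell value was a call, and the reverse-phase sign of H2-DMb1 was not stable. Endothelial and Kupffer values below 0 made up 52.3% and 49.9% of all tested genes. The opposite signs come from separate tables with separate libraries and normalisation, and the difference between liver and isolated cells was not tested.

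Time of day was asked next, with a test of a 24 h cosine curve in each genotype. Class II rhythms were few. In ad libitum control liver Cd74 passed (edgeR adjusted p = 0.0454), with a range from trough to peak of 1.45-fold and a fitted peak at ZT 22.5. Control CPM at ZT 22 were 63.2, 53.2 and 62.7. ZT 1 gave 52.8, 50.3 and 58.4 CPM, and ZT 13 gave 38.8, 42.8 and 27.6. At ZT 16 they ran from 39.7 to 72.8, the highest of the 24 control values. All 3 values at ZT 22 were above all 3 at ZT 13. This is 1 of 7 genes where 48.1% of all genes were called, and the call was lost in 21 of 48 fits without 1 library and in the fit without the 2 that stood apart (edgeR adjusted p = 0.0743).

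No class II gene passed in ad libitum knockout liver, where 44.2% of genes were called, nor in reverse-phase control (41.2%) or knockout liver (36.7%). H2-Aa came nearest in ad libitum knockouts, with a 1.57-fold range, a peak at ZT 3.02 and an edgeR adjusted p of 0.0544, and it passed in 10 of 48 fits without 1 library. The rhythms of the genotypes were not shown to differ for any class II gene in liver, where 3.31% of genes were called ad libitum and 1.49% under reverse-phase feeding.

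In endothelial cells H2-DMb1 passed in both genotypes, and no other class II gene passed in either. Its fitted range was 2.23-fold in controls (limma adjusted p = 0.0465) and 2.16-fold in cells of knockout livers (limma adjusted p = 0.0378), with peaks at ZT 13.5 and ZT 13.2. The values given above show it: in controls the 6 libraries of ZT 10 and 16 had 25.8 to 51.1, and the 6 of ZT 4 and 22 had 11.2 to 25.2. Background shares were 6.13% of genes in controls (768 genes, and 248 to 1163 without 1 library) and 13.2% in cells of knockout livers (1652, and 733 to 2439). Leaving out 1 library ended the call in 14 of 24 fits for controls and in 7 of 24 for knockouts. Without the 2 libraries that stood apart the knockout range was 2.20-fold (limma adjusted p = 0.0621). No class II rhythm differed between the genotypes there, where 2.04% of genes did (256 genes, and 0 to 1326 when 1 library was left out).

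Kupffer cells had no class II rhythm in either genotype, with 1.96% of genes called in controls (241 genes, and 112 to 320 without 1 library) and 1.81% in cells of knockout livers (222, and 57 to 310), and none of the 12270 genes differed in rhythm between genotypes (279 had an unadjusted limma p under 0.05). Cd74 ranged 1.35-fold in controls with a fitted peak at ZT 21.9. Its 3 control values at ZT 22 were 13054, 13054 and 13451, and at ZT 10 they were 8439.5, 9890.1 and 11263, which is a gap between groups without a call for the curve.

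**Figure D5:**
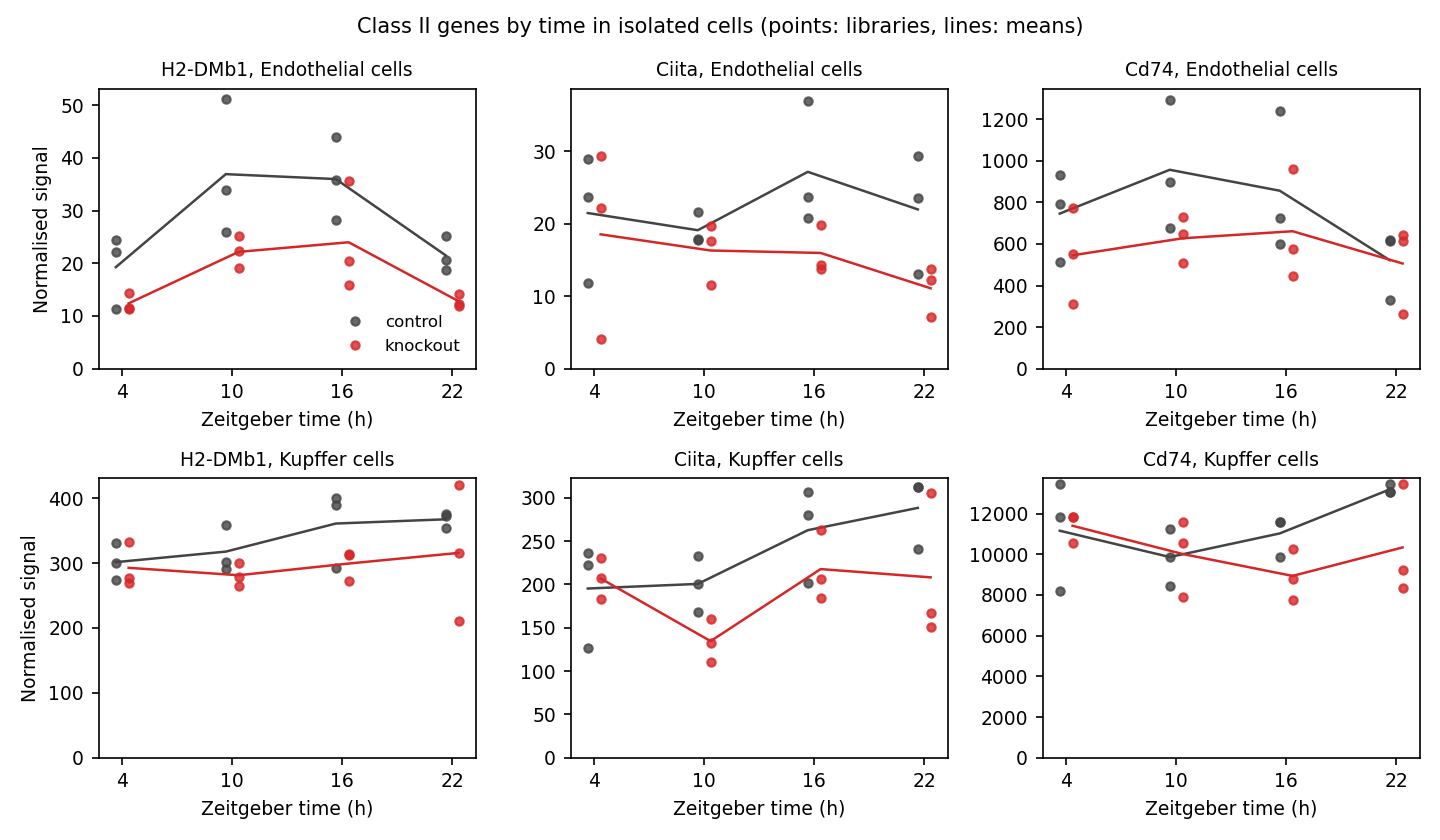
H2-DMb1, Ciita and Cd74 by zeitgeber time in endothelial cells (upper row) and Kupffer cells (lower row), in normalised signal, 1 point per library and lines through the means of 3 libraries. Endothelial H2-DMb1 is higher at ZT 10 and 16 than at ZT 4 and 22 in both genotypes, and in endothelial cells the knockout means of the 3 genes lie below the control means. In Kupffer cells the knockout mean lies above the control mean for Cd74 at ZT 4 and 10 and for Ciita at ZT 4.

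Feeding was compared in liver by interaction terms in 1 fit of both schedules, which cancel a constant offset between the tables. No class II gene had a genotype difference that depended on feeding, where 0.207% of 13535 genes did (28 genes, and 5 to 23 without 1 replicate number). The largest value was that of Ciita, 0.41 ± 0.28, with an edgeR adjusted p of 0.863. The control rhythm of H2-DMb1 differed between the schedules (edgeR adjusted p = 0.0328), a test that 53.5% of all genes passed. Its fitted peak was at ZT 0.308 ad libitum, with a range of 1.58-fold, and at ZT 13.8 under reverse-phase feeding, with a range of 1.44-fold, although neither rhythm passed alone (edgeR adjusted p = 0.188 and 0.224). The call was lost in each of the 3 fits that left out 1 replicate number (edgeR adjusted p from 0.0571 to 0.221) and without the libraries that stood apart (0.0626). Control CPM at ZT 13 were 1.89, 1.69 and 0.813 ad libitum and 2.68, 2.22 and 3.69 under reverse-phase feeding. At ZT 1 they were 1.71, 2.51 and 3.87, and 2.39, 1.89 and 1.78. At this depth a control library of ad libitum liver held 3.5 to 26.0 deposited counts of H2-DMb1. Other differences between the 2 tables cannot be told apart from feeding.

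Few other genes of the pathway were called, at shares near or below those of all genes. Of 14 tested ad libitum, 2 rose and 2 fell in knockout liver, where 13.7% of all genes rose and 13.5% fell. The cysteine protease gene Ctsl, whose product cathepsin L can cut the invariant chain, rose by 0.58 ± 0.04 ad libitum and by 0.57 ± 0.07 in reverse-phase livers. Rfxank, a subunit of the RFX complex that reads the X box, rose by 0.31 ± 0.06 and 0.33 ± 0.05. Its partners Rfx5 and Rfxap had -0.19 ± 0.08 and -0.15 ± 0.07 ad libitum and did not pass. Nfyb, a subunit of the Y-box factor NF-Y, fell by 0.21 ± 0.05 and 0.29 ± 0.06 on the log2 scale. Under reverse-phase feeding 2 rose and 1 fell of 16 tested, where 12.7% of all genes rose and 14.2% fell. The edgeR adjusted p of Ctsl, Rfxank and Nfyb was 9.11e-04 or lower in both schedules. Ifi30, a thiol reductase of the endosome, fell by 0.18 ± 0.06 ad libitum (edgeR adjusted p = 0.0228) and had -0.14 ± 0.07 under reverse-phase feeding.

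The protease of antigen-presenting cells, cathepsin S (Ctss), had 0.12 ± 0.08 ad libitum and did not pass. In endothelial and Kupffer cells none of 17 and 18 tested genes was called. Among the genes that carry the interferon-gamma signal to Ciita, Irf2 fell by 0.32 ± 0.06 ad libitum and by 0.28 ± 0.06 on the log2 scale in reverse-phase livers. Irf1, a factor that acts on the Ciita promoter, fell by 0.38 ± 0.11 ad libitum (edgeR adjusted p = 0.00602) and had -0.15 ± 0.10 under reverse-phase feeding. In all, 3 fell of 9 tested ad libitum, against 13.5% of all genes, and 1 fell of 10 under reverse-phase feeding, against 14.2%. None of 10 was called in endothelial or Kupffer cells, where 0.0319% and 0.0244% of all genes were.

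Within each table the 7 genes varied together from library to library. Pairwise Pearson r of log2 values ran from 0.294 to 0.885 ad libitum (median 0.559, 48 libraries), from 0.206 to 0.959 under reverse-phase feeding (0.753), from 0.544 to 0.949 in endothelial cells (0.805, 24 libraries) and from 0.589 to 0.987 in Kupffer cells (0.771). The chains of I-A, H2-Aa and H2-Ab1, were the closest pair in 3 tables, and H2-Ab1 with H2-Eb1 in Kupffer cells. H2-DMa and Ciita were the loosest pair in both livers, where Ciita had the fewest counts. The points of a table share library composition, and no test was made.

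The genes most like the class II mean differed by table. In ad libitum liver they were Tmsb4x (r = 0.674), Ctss (0.671), Msn (0.589), Mpeg1 (0.56) and Sdc3 (0.539), and under reverse-phase feeding Ctss (0.641), Pkm (0.619), the class I gene H2-T23 (0.612) and the macrophage genes Cd5l (0.571) and C1qa (0.569). In endothelial cells they were Gbp2b (0.888), Itgb2 (0.887), Cd68 (0.881), Adgre1 (0.868) and Fam129a (0.866), of which Cd68 and Adgre1 are Kupffer markers. In Kupffer cells Mir5107 came first (0.907), and it lies inside Cd74 and shares its reads. It was followed by Gbp5 (0.791) and Gbp2b (0.746), guanylate-binding proteins of the interferon response, and by Psme2b (0.714) and Plau (0.701).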

How the data were processed

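RNA libraries of liver, endothelial cells and Kupffer cells (144, in 48 groups of 3) were analysed from 4 tables. Per the submitters' processing notes, STAR, HOMER and the build mm9 were used, and other settings were not given. The liver tables of the authors contain expected counts, as multiples of 0.5 for each transcript, which were rounded to whole numbers. Endothelial and Kupffer values were deposited as a normalised signal. All 24 columns of such a table share their sorted values, from which quantile normalisation was read. It leaves no known depth and hides any change shared by most genes, and a count test planned for these tables was replaced by limma.

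Of 34600 transcript rows, 1 row per symbol was kept, that with the largest mean share over the libraries. It was also the longest row for each of the 7 genes. For liver, edgeR 4.0.16 was used (TMM, filterByExpr, robust quasi-likelihood fit), and for isolated cells limma 3.58.1 (with trend, robust) on log2(signal + 1), keeping genes that reached 10 in 3 or more libraries. Terms were genotype and, per genotype, the cosine and sine of 24 h. All 48 or 24 libraries of a table entered, and Benjamini-Hochberg adjustment ran over all tested genes, with a threshold of 0.05. The fits were tested on simulated data with known changes.

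The 7 genes and 11 lists of pathway and cell type genes were chosen with earlier results of these data known. Named beyond the 7 are list genes that passed the genotype test (at most 3 of a list), the RFX genes, the other class II chains, and the 5 genes per table most correlated with the class II mean. No 2 libraries were identical (chi-square per degree of freedom of at least 4.88 between liver replicates). Replicate numbers were not taken to pair libraries, since not every pair of same-numbered deviations correlated above 0.1: means per number ran from -0.021 to 0.175. The highest was Kupffer number 2, with 3 of 4 genotype pairs above 0.1, and the Kupffer libraries that stood apart were numbers 2 and 3 of ZT 4 in both genotypes. Alternatives were the longest row, the replicate block, time as a factor, other filters, pseudocounts of 0.5 and 8, DESeq2 size factors, DESeq2 1.42.0 and leaving out each library. Fits without 8 libraries were added after the data were seen. These lay beyond 3 median absolute deviations in their spread or in their slope on transcript length, or, in liver, had over 5% of counts in the ribosomal transcript Rn45s.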

Additional observations from a re-analysis of the deposited data

Results flagged for a closer look

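H2-DMb1 was singled out because its control rhythm differed between ad libitum and reverse-phase feeding by a test of the difference itself (edgeR adjusted p = 0.03285). The fitted peak was at ZT 0.308 ad libitum and at ZT 13.8 under reverse-phase feeding. Of all 13535 genes, 53.5% passed that test, and leaving out any 1 of the 3 replicate numbers ended the call.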

How the results depend on the processing

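The few calls among the 7 genes sat at the threshold. The ad libitum genotype call (H2-Eb1) went from 1 gene to 0 with the longest row (edgeR adjusted p = 0.0512), the replicate block (0.0587), time as a factor (0.0629), no filter on low values (0.0701) and the libraries that stood apart left out (0.0830). The ad libitum control rhythm (Cd74) went from 1 to 0 with the longest row, time as a factor, no filter, DESeq2 size factors, a mean of at least 1 CPM and the libraries that stood apart left out. DESeq2 called 1 gene in place of 0 for the ad libitum knockout rhythm and 1 (H2-Aa) for the reverse-phase genotype difference. Endothelial H2-DMb1 lost its control rhythm, 1 to 0, with the replicate block, time as a factor and no filter. Its knockout rhythm went from 1 to 0 with time as a factor, no filter and the libraries that stood apart left out. A minimum of 50 in 3 or more libraries also gave 0 for both rhythms. H2-DMb1 was not tested there, since its highest endothelial values were 51.1 in controls and 35.6 in knockouts. In liver the feeding by rhythm interaction of H2-DMb1 went from 1 to 0 with no filter (edgeR adjusted p = 0.0533) and the libraries that stood apart left out. The replicate block turned the sign of reverse-phase H2-DMb1 (-0.0095 against 0.0096). The labels do not say whether libraries of the same number share a source, so what a call lost under the block means cannot be told.

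Leaving out 1 library at a time gave 0 to 2 genes for the ad libitum genotype difference, 0 to 1 for the reverse-phase one and for the ad libitum control rhythm, 0 to 2 for the ad libitum knockout rhythm, 0 to 1 for each endothelial rhythm and 0 for the feeding by rhythm interaction. Cd74 joined the ad libitum genotype call without control ZT 16 number 3 (edgeR adjusted p = 0.0280). H2-DMb1 ran from -0.0596 to 0.0534 in reverse-phase liver. The feeding by genotype values changed sign for H2-Aa (-0.14 to 0.45), H2-Ab1 (-0.19 to 0.32), H2-Eb1 (-0.32 to 0.18), H2-DMb1 (-0.53 to 0.0653), Cd74 (-0.24 to 0.19) and Ciita (-0.0016 to 0.85), none of them a call. Counts over all genes that moved by over 1.5 times under the other settings, which keep every library or leave out those that stood apart, were the reverse-phase rhythm difference (206, and 132 to 330 with time as a factor or DESeq2), the endothelial genotype difference (4, and 0 to 2), control rhythm (768, and 483 to 1266) and rhythm difference (256, and 43 to 386), and in Kupffer cells the genotype difference (3, and 0), control rhythm (241, and 118) and knockout rhythm (222, and 74 to 125). Leaving out 1 library or replicate number also moved by over 1.5 times the endothelial genotype difference (1 to 7), control rhythm (248 to 1163), knockout rhythm (1652, and 733 to 2439) and rhythm difference (0 to 1326), the Kupffer genotype difference (2 to 7), control rhythm (112 to 320) and knockout rhythm (57 to 310), and the feeding by genotype interaction (28, and 5 to 23). The cause of these changes was not tested. Of the remaining values under the other settings, 113 were counts of called class II genes or the Kupffer to endothelial level ratio. The counts stayed equal, and the ratio stayed within its SD between libraries. A further 940 were values of single class II genes, which kept direction and side of the threshold, or counts over all genes, which stayed within 1.5 times. Control and knockout rhythms of single genes with time as a factor or DESeq2 have no fitted range and are not among them.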

Other observations

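MHC class I presentation, which shows peptides from inside the cell to CD8+ T cells and lies next to class II in the MHC, fell in part in knockout liver. Of 14 tested class I genes 4 fell ad libitum, 5 fell in reverse-phase livers and none rose, where 13.5% and 14.2% of all genes were lower in the knockout. The immunoproteasome subunits Psmb10 and Psmb8 fell by 0.48 ± 0.07 and 0.37 ± 0.08 (log2 ± SE) ad libitum, and by 0.55 ± 0.07 and 0.56 ± 0.07 in reverse-phase livers. Tapbp, the chaperone tapasin, fell by 0.19 ± 0.05 and 0.26 ± 0.05, and the class I heavy chain H2-K1 by 0.17 ± 0.04 and 0.30 ± 0.05. H2-D1 fell by 0.14 ± 0.05 under reverse-phase feeding (edgeR adjusted p = 0.0408), and the edgeR adjusted p of the other falls was 0.00132 or lower. None of the 14 was called in endothelial or Kupffer cells, where their medians were -0.01 and -0.02.

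Among the genes most like the class II mean in ad libitum liver, Mpeg1, which encodes the pore protein perforin-2 of macrophages, rose by 0.65 ± 0.08 (edgeR adjusted p = 1.18e-08), and Msn by 0.20 ± 0.08 (0.0494). Cd4, the coreceptor that binds class II on T cells and which macrophages can also express, fell by 1.21 ± 0.20 on the log2 scale ad libitum (edgeR adjusted p = 5.86e-06), and was the 1 of 10 T and NK cell markers with enough counts to test there. In reverse-phase livers Cd4 had -0.25 ± 0.17 (edgeR adjusted p = 0.281), and none of 8 such markers tested was called.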
